A study of Drosophila melanogaster with 3 samples.

Results

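Distal intergenic peaks are the regions precipitated with the tagged CG5180 protein that lie between genes and away from gene starts. They were taken from the dm6 list that passed the irreproducible discovery rate (IDR) filter, which retains peaks that replicates place in a similar order. A peak was a member when its summit, the position of highest signal, fell in no annotated gene body of any biotype, transposable elements included, and lay over 2000 bp from the nearest transcription start site (TSS) of a protein-coding gene. Within the IDR list position alone decided membership, and sequence was not used. Strength entered through the list itself, which holds the 5400 strongest peaks of the pooled replicates. Of 5400 IDR peaks, 591 were members (10.9%, Wilson 95% interval 10.1 to 11.8%). Their summits lay 2010 to 60375 bp from the nearest protein-coding TSS, with a median of 6069 bp, and 200 of them (33.8%) lay over 10000 bp away.

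The study precipitated sonicated chromatin of whole Drosophila melanogaster embryos with an antibody against green fluorescent protein (GFP). The embryos were aged 0 to 16 h and of both sexes, and came from a transgenic line with stable expression of CG5180 fused to eGFP at its C terminus. The series holds 3 biological replicates in 1 group, and every embryo carries the tag. Chromatin without the tag or without precipitation was not analysed here. Whole embryos pool all tissues over most of embryogenesis, so a peak cannot be assigned to a cell type or stage, and the level of the tagged protein beside the native one is not stated. Each replicate list held 30000 peaks, the read depth is unknown, and the signal value of a peak is the authors' own score, comparable only within a list.

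CG5180 is a fly gene still known by its annotation number. Intergenic sequence far from a TSS holds many of the elements that act on genes at a distance: enhancers, which raise transcription in particular tissues, silencers such as Polycomb response elements, and insulators, which separate neighbouring regulatory domains. In the fly embryo, long gaps beside genes for patterning transcription factors are known for carrying several enhancers each. The CG5180 gene itself lies on chromosome arm 3R at 20557930 to 20559760, holds 1 IDR summit, and had no member beside it.

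Windows around 8 of the 12 strongest members, numbers 3, 4, 5, 7, 8, 10, 11 and 12 in order of signal, are shown first, because the sequence results below turn on such windows and GTTCGA, the 6-mer most concentrated at member summits, can be seen in them. Each window runs 100 bp to each side of the summit, and is given on the plus strand of dm6, genome release 6. Capitals mark the 5 leading 6-mers on either strand: the first is GTTCGA, followed in rank by GCAACA, then by CAACAA, by AACATG and by ACAAGT, and all were chosen after their values were seen. The other 4 lie on a chromosome arm whose sequence is not shown. GTTCGA occurs in 5 of the 8 windows, which do not stand for the members at large: it was in 18.1% of the windows of all 591 members and in 30.8% of those in the strongest 25% of the IDR list.
Diedel3, chrX:19028660-19028860: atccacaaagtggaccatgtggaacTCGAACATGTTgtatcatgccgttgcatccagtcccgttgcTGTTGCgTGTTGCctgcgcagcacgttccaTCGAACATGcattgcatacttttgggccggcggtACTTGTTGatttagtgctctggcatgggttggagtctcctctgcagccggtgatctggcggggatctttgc
CG43245, chr3L:10739365-10739565: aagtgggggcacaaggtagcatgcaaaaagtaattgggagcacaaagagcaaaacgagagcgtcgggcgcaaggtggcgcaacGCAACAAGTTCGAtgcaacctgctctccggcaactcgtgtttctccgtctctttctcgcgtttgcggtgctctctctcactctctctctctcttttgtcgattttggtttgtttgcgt
CG10651, chr2L:20121086-20121286: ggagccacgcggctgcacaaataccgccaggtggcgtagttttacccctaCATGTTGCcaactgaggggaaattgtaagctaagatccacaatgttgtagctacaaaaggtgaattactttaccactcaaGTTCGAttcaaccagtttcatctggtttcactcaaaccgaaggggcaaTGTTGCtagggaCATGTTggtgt
CG13723, chr3L:17269587-17269787: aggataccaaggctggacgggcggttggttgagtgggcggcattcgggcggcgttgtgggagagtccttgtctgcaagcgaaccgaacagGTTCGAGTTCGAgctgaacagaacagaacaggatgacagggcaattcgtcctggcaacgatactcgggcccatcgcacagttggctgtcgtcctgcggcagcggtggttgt
AP-1gamma, chrX:9119002-9119202: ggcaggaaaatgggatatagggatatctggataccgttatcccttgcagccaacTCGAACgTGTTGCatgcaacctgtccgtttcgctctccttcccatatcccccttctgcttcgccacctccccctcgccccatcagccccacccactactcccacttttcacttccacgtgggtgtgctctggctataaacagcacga
mtSSB, chr3R:16207278-16207478: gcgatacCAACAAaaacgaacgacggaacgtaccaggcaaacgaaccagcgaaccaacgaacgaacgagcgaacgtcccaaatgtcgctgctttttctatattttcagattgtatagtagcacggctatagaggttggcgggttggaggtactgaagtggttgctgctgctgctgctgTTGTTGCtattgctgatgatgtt
CG10943, chr3L:12868068-12868268: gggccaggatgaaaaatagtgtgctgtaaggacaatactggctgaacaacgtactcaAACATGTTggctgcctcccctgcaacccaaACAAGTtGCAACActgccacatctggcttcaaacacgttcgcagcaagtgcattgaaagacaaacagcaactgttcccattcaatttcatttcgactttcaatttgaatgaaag
Dip-B, chr3R:13789818-13790018: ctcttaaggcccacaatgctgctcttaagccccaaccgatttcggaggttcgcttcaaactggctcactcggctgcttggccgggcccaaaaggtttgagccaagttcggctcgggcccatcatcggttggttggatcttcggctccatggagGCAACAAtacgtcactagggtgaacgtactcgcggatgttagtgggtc
The Diedel3 window holds 9 matches to the 5 leading 6-mers, of all 5 kinds. The CG43245 window holds 4 matches, of 4 kinds, which run into one another in a single stretch just to the left of the summit. The CG13723 window holds GTTCGA in tandem, again at the summit. The windows beside mtSSB, CG10943 and Dip-B hold no GTTCGA, and have 3, 4 and 2 matches to the other 6-mers.

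The strongest distal intergenic peak was also the strongest of all 5400. It lay on arm 2R at 16827974 to 16831257, downstream of CG34460 and 183 bp from the start of the long noncoding RNA CR43650, with signal values of 22709, 15820 and 12187 in replicates 1, 2 and 3. It ranked first in replicates 1 and 3 and second in replicate 2. The next member lay 5684 bp upstream of chn (charlatan), which encodes a zinc-finger factor of sensory organ development. Its signal values were 11281, 8045 and 6228, and it ranked 16, 21 and 16 in the 3 replicates. The member 21682 bp upstream of Diedel3 followed, with 8569, 6682 and 5195 (ranks 30, 32 and 28). A member in the gap between NijA and CG43245 reached 8478, 6158 and 4465 (ranks 32, 42 and 38). The member at 2L 20120544 to 20121877, 780 bp from the start of a Dm88 transposable element, reached 6971, 5928 and 3715. No replicate placed any of these 5 members lower than 60th.

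Members 6 to 16 had IDR-list signal values of 3575 to 7650, against 16520 for the fifth, and lay near genes such as AP-1gamma, an adaptor subunit of clathrin-coated vesicles, and mtSSB, the mitochondrial single-stranded DNA-binding protein. The mtSSB member also faced tara (taranis), a trithorax-group gene, across the gap. Of the next members, some lay beside regulators of development and others beside genes such as shg, CG43245, CG34129 and CG2772. The member 13579 bp from lbe (ladybird early), a homeobox gene of muscle and heart, had 1351, 1062 and 826. The member between al (aristaless), a homeobox gene of appendages, and CG4213 had 1397, 1042 and 750. Its nearest protein-coding start was that of CG4213. The member near shg, which encodes E-cadherin, had 1304, 1070 and 656.

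Further strong members lay between Ca-beta, a calcium channel subunit gene, and ab (abrupt), a BTB zinc-finger gene, with 1212, 767 and 637. One lay between Su(z)2, a Polycomb-group gene, and CG13323, with 923, 940 and 608. Its nearest protein-coding start was that of CG13323, 11955 bp away. Another lay 5257 bp upstream of ptc (patched), the Hedgehog receptor gene, with 934, 863 and 634. All 25 strongest members stood among the 314 strongest peaks of every replicate, and they were chosen by the pooled signal of these replicates.

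A replicate was said to recover a peak when one of its own 5400 strongest summits lay within 200 bp of the IDR summit. By this measure 25 of the 25 strongest members were recovered by all 3 replicates. The share over all IDR peaks was 68.7%, but it is not matched for strength. The 25 were chosen by the pooled signal of the same replicates, so their recovery follows largely from that choice. It does not show that members are better reproduced than other peaks. The members' typical signal was far lower: the IDR-list values ran from 182 to 50504 with a median of 278, an upper quartile of 427 and an upper decile of 959. Across the 582 members found in all 3 whole replicate lists, the order of signal correlated between replicates 1 and 2 with a Spearman rho of 0.759, between 1 and 3 with 0.754, and between 2 and 3 with 0.743. These lists share their members and the choice of the IDR list, so the coefficients are a description.

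**Figure D1:**
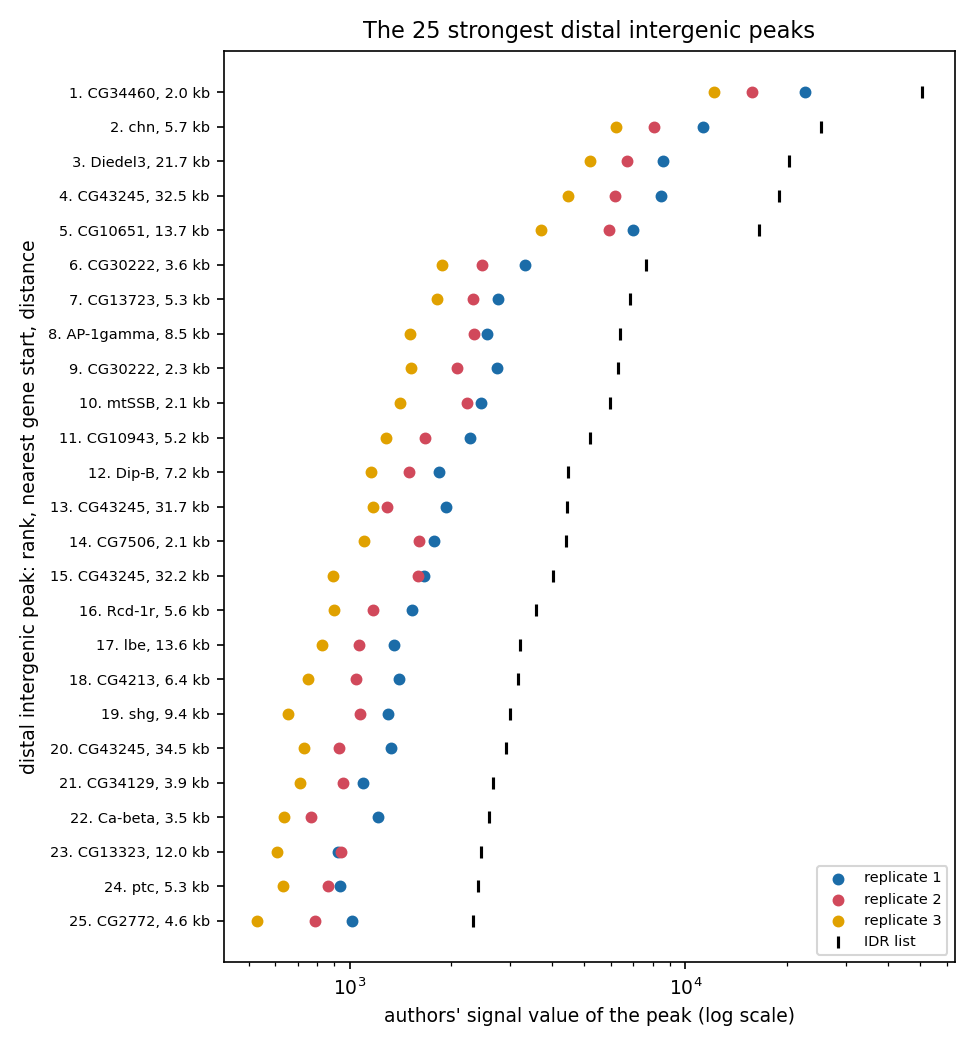
Signal value of the 25 strongest distal intergenic peaks (rows, with the nearest protein-coding start and its distance) in each replicate (coloured points) and in the IDR list (black ticks), on a log scale. The top member reached 22709, 15820 and 12187 in the 3 replicates, and the order of members is much the same in each.

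Some gaps between genes held several members. A gap here runs between neighbouring annotations of any biotype, so noncoding RNAs and transposable elements also end one, and each is named by the protein-coding genes to its left and right. Of 5698 gaps that hold sequence meeting the rule, 369 (6.48%) held a member, and 118 held 2 or more, which took in 340 of the 591 members (57.5%). The 22 gaps with 4 or more members held 124. Gaps with a member had a median length of 9.11 kb, and those without 2.04 kb. A longer gap offers more eligible sequence, so this contrast does not show that members favour long gaps. Per Mb of eligible sequence, members fell from 31.3 in gaps of 0 to 10 kb to 6.42 in gaps over 50 kb. Neighbouring summits in 1 interval share their source: the 591 members lay in 570 peak intervals and 533 separate regions, and 18 intervals held more than 1 member.

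The gap of 75.05 kb on 3L between NijA, which encodes the cell-surface protein Ninjurin A, and CG43245 held 16 members in 12 intervals spread over 35.1 kb. Replicates 1, 2 and 3 placed 17, 13 and 18 of their own strongest peaks in eligible sequence of this gap. Signal values in the IDR list ran from 189 to 19016 with a median of 413, and 11 of the 16 were recovered by all 3 replicates. The 4 strongest of them, at 10736754 to 10740823, were all among the 25 strongest members.

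**Figure D2:**
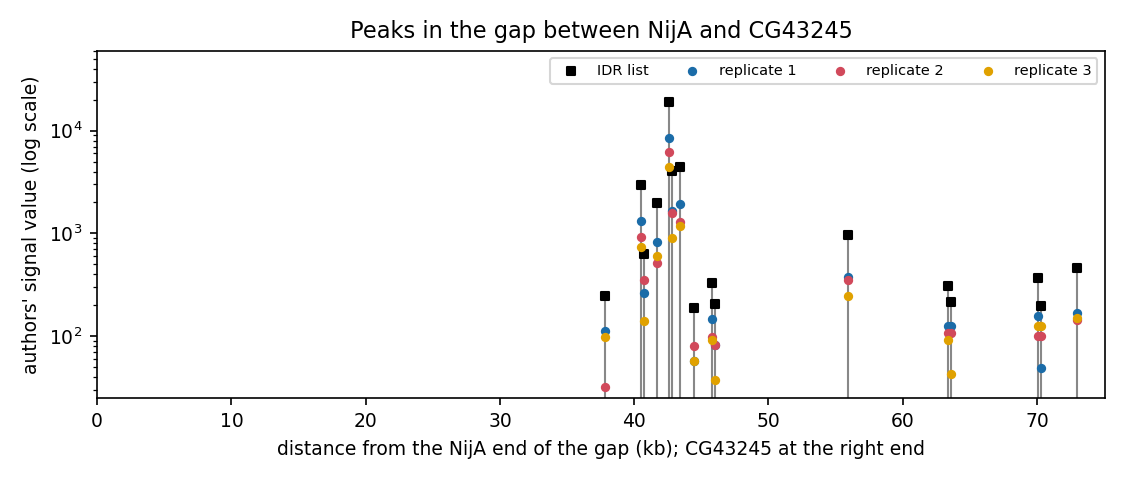
Signal value (log scale) of the 16 members in the gap between NijA and CG43245 against their distance from the NijA end, for the IDR list (black squares) and the 3 replicates (coloured points). The strongest members, up to 19016 in the IDR list, sit close together near the middle of the gap, among members with a median of 413.

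The next most members, 8, lay in a stretch between 2 long noncoding RNA genes, CR44603 and CR45695, on the way from RFeSP, a subunit gene of respiratory complex III, to chinmo, a BTB zinc-finger gene of neuronal temporal identity. All 8 were recovered by all 3 replicates, which placed 8, 10 and 6 of their own peaks there, and 9 members lay between RFeSP and chinmo in all. Each replicate placed 7 peaks in the gap between Pgant2, a gene for mucin-type glycosylation, and CG2772, where the 7 members reached 2326. The gap that begins at vvl (ventral veins lacking), a POU-domain gene of tracheal and neural development, and ends at a Doc transposable element before Prat2 spanned 61.0 kb and held 6 members, with 6, 6 and 5 replicate peaks. A stretch next to shg held 6 of the 7 members that lay between ND-B14.7 and shg. Another held 6 of the 8 between Dip-B and tal-2A, which encodes a small peptide of leg and tracheal patterning. The stretch next to the F-box gene Ppa, on the side of RYBP, which encodes a Polycomb-associated ubiquitin-binding protein, held 5, with 4 replicate peaks each. The other gaps among the first 10, in order of members and then of the strongest signal, held all 7 members between CG44362 and CG7560, 7 of the 13 between CG6168 and CG6163, and 6 of the 10 between hng3 and CG13898. Of 12 gaps with 5 or more members, those last in this order were not described. The counts from single replicates varied by up to 5 peaks in a gap. Counted between protein-coding genes alone, the order changed after the first: CG6168 to CG6163 followed NijA to CG43245, then plh to corto and hng3 to CG13898, with 10 members each.

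Orientation was read over the 2861 gaps between protein-coding genes that hold eligible sequence. Divergent gaps, between 2 genes whose starts both face the gap, held 196 members (33.2%) but 22.0% of the eligible sequence. They had 32.1 members per Mb. Convergent gaps had 21.7 per Mb (144 members) and gaps between genes of the same direction 18.6 per Mb (251 members). Neither distance to a start nor gap length was matched between these orientations, and their part in the difference was not tested. Members lay upstream of their nearest TSS in 342 cases (57.9%). The share of eligible sequence that lies upstream of its nearest TSS was not measured, so this value has no reference.

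Members were found beside genes of the gap and head, pair-rule, segment polarity, Hox and dorsoventral patterning lists. Of 4599 protein-coding genes beside eligible sequence, 595 (12.9%) bordered a gap holding a member or had a member as nearest. Of 13 gap and head patterning genes beside eligible sequence, 7 did, with 14 members between them. They included slp1 and slp2 (sloppy paired), a pair of forkhead genes of head and segment patterning that share a member with 319, 285 and 215 in the 3 replicates, ems (empty spiracles), a head homeobox gene, and knrl. Of 33 genes of homeobox and T-box clusters, 13 did, with 24 members. The Pax genes eyg and toe, which act in eye development, shared a member with 740, 502 and 444, the highest of the list. The strongest of the 6 members beside vvl had 362, 299 and 218, and the member between disco and disco-r, a pair of zinc-finger genes of head identity, 334, 246 and 231.

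Among signalling genes, 4 of 10 EGF and FGF pathway genes had members, including sty (sprouty), a feedback inhibitor, with 7, and the FGF ligand genes pyr and ths. Of 15 segment polarity, Wnt and Hedgehog genes, 5 did: ptc had 4 members, wg and Wnt4 shared 1 with 154, 134 and 124, and en (engrailed) had 1 near the lower end, with 87.5, 55.7 and 67.9. Of 15 dorsoventral and BMP genes, 5 did, led by the T-box genes Doc1 and Doc2 with a shared member at 202, 185 and 131. The JAK-STAT ligand genes upd1 and upd3 shared 1 member, and 2 of 3 genes of that list bordered it. Of 10 Notch pathway genes, 3 had a member, led by the ligand gene Ser.

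Of 10 Hox genes, 3 had members: abd-A had 2, the stronger with 209, 198 and 130, and Dfd and Scr shared the same 3. Pair-rule genes gave 3 of 11, with 4 members beside hry (hairy), and proneural and neural factor genes 5 of 17, including the homeobox gene pros and the Sox genes D (Dichaete) and Sox21b. Psc, a subunit gene of Polycomb repressive complex 1, had 6 members, up to 658, 693 and 418, and it and Su(z)2 were the 2 of 8 genes in the list of chromatin regulators with members. Mesoderm and muscle genes gave 4 of 19, led by lbe, and axon guidance and adhesion genes 5 of 22, led by the Toll-family receptor gene 18w.

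Lists of tissue-effector and housekeeping genes were mixed. Of 95 chemoreceptor and odorant-binding genes, 19 had a member, and of 30 cytochrome P450 genes 7. Of 36 cuticle protein genes 4 did, of 22 cytosolic ribosomal protein genes 2, of 28 Dpr and DIP cell-recognition genes 2, and of 21 tetraspanin, lectin and serpin genes 2. None of 9 hormone receptor genes did, and a count of 0 in 9 allows a share of up to 33.3%. The lists are short, a member can count for the genes on both sides, and gap length was not matched, so the shares are read only beside the 12.9% of all such genes.

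Some of the genes beside members also carried a peak at their own start. The nearest protein-coding gene itself had an IDR summit at a start for 130 of 591 members (22.0%). Counted once each, 81 of 358 nearest genes did (22.6%, Wilson interval 18.6 to 27.2%), against 463 of 3779 genes nearest to some eligible base (12.3%, 11.2 to 13.3%) and 1675 of all 13945 protein-coding genes (12.01%). The length of eligible sequence beside each gene was not matched, and its part in this difference was not tested.

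Distal intergenic peaks were then set against other positional classes. Near-start intergenic peaks (418) lay between genes and over 250 bp but at most 2000 bp from a TSS. Distal intronic peaks (1302) lay in introns and, like the members, over 2000 bp from a TSS. Promoter peaks (1676) lay within 250 bp of a TSS. Tests were Fisher's exact test, two-sided, with Benjamini-Hochberg (BH) adjustment over 7 tests, and they compare peaks of pooled data, which are not replicates.

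Distal intergenic peaks were weaker than peaks close to gene starts, and against distal intronic peaks the answer depended on where the list was divided. Of the members, 107 (18.1%, 15.2 to 21.4%) stood in the strongest 25% of the IDR list, which holds 25% of all peaks by construction. Near-start intergenic peaks stood there in 123 of 418 cases (29.4%), an odds ratio of 0.530 for distal against near-start (95% interval 0.394 to 0.713, BH-adjusted exact p = 6.03e-05). Promoter peaks did in 563 of 1676 cases (33.6%), an odds ratio of 0.437 (0.346 to 0.552, BH-adjusted exact p = 1.18e-12). Distal intronic peaks did in 234 of 1302 cases (17.97%), an odds ratio of 1.01 (0.784 to 1.30, BH-adjusted exact p = 0.949). This log2 odds ratio turned slightly negative, down to -0.12, under several alternatives. Within the stronger 50% of the list taken alone, its own strongest 25% held 24.7% of distal intergenic and 27.3% of near-start peaks, and that difference did not pass (BH-adjusted exact p = 0.750). It held 15.6% of distal intronic peaks, and there the members were higher (log2 odds ratio 0.83, BH-adjusted exact p = 0.0104).

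In the replicates' own lists of 5400 strongest peaks the same order held. Distal intergenic peaks stood in a replicate's strongest 25% in 19.3 ± 1.23% of cases, near-start intergenic peaks in 29.7 ± 1.70%, distal intronic peaks in 17.6 ± 0.670% and promoter peaks in 32.5 ± 0.913% (SD, n = 3). Median signal in the IDR list was 278 for distal intergenic, 351 for near-start, 287 for distal intronic and 353 for promoter peaks. The top of the range departed from the middle: 54 members (9.14%) stood in the strongest 10%, against 65 distal intronic peaks (4.99%, log2 odds ratio 0.94, BH-adjusted exact p = 0.00138 by Fisher's exact test). With near-start peaks (12.7%) the difference in the strongest 10% did not pass (log2 odds ratio -0.53, BH-adjusted exact p = 0.0909).

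Fewer members than peaks close to gene starts were recovered by all 3 replicates. Replicates 1, 2 and 3 recovered 88.3%, 79.7% and 79.7% of the members, 88.3%, 89.7% and 84.7% of near-start intergenic peaks, 86.3%, 84.3% and 81.8% of distal intronic peaks, and 87.2%, 88.5% and 88.2% of promoter peaks. The members had the lowest share of the 4 classes in replicates 2 and 3, but not in replicate 1. All 3 replicates recovered 367 of 591 members (62.1%, 58.1 to 65.9%), 2 recovered 147, 1 recovered 69, and none recovered 8. Near-start peaks were recovered by all 3 in 74.4% (odds ratio 0.564, 0.428 to 0.742, BH-adjusted exact p = 6.03e-05) and promoter peaks in 72.7% (odds ratio 0.616, 0.505 to 0.751, BH-adjusted exact p = 4.66e-06). Distal intronic peaks were in 65.5% (odds ratio 0.862, 0.705 to 1.06, BH-adjusted exact p = 0.189).

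Neither difference in recovery passed within the stronger or the weaker 50% of the list. In the stronger 50% all 3 replicates recovered 98.0% of distal intergenic, 98.7% of near-start and 97.1% of promoter peaks (BH-adjusted exact p = 0.845 and 0.750), and in the weaker 50% 36.3%, 42.2% and 39.9% (BH-adjusted exact p = 0.493 for both, Fisher's exact test). With double the number of peaks taken from each replicate, all 3 recovered 95.3% of distal intergenic, 95.2% of near-start and 93.6% of promoter peaks. Neither difference passed, again with little room for one. In all, 582 members (98.5%) were found somewhere in all 3 whole replicate lists.

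**Figure D3:**
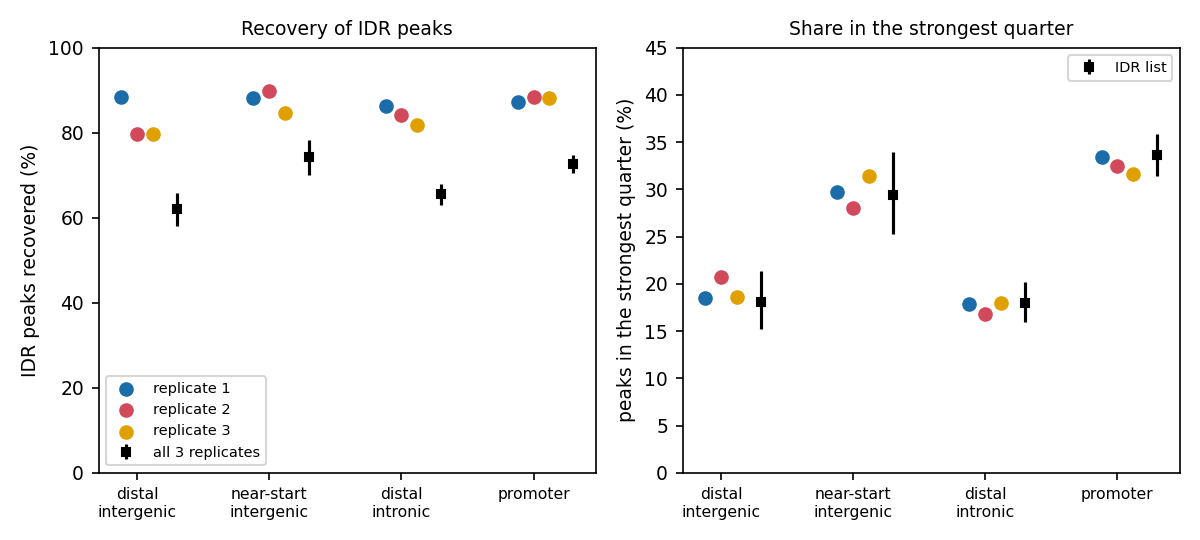
Left, share of IDR peaks recovered by each replicate (coloured points) and by all 3 (black squares, Wilson 95% interval), by class. Right, share of each class in the strongest 25% of the replicates' own strongest peaks (coloured) and of the IDR list (black). Distal intergenic peaks sit with distal intronic peaks on the right, at 18.1% and 17.97%, below near-start (29.4%) and promoter peaks (33.6%).

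Distal intergenic summits made up a smaller part of the IDR list than of the weaker pooled entries behind it. The authors label the pooled list as peaks and background for IDR, so some of these entries may be background. Distal intergenic summits were 10.9% of IDR peaks, against 4239 of the 22938 pooled entries that overlap no IDR peak (18.5%, 17.98 to 18.99%). The odds ratio was 0.542 (0.495 to 0.594, BH-adjusted exact p = 1.39e-42 by Fisher's exact test). Among peaks outside promoters the shares were 15.9% of 3724 IDR peaks and 21.0% of 20146 others. Replicates 1, 2 and 3 had 589, 532 and 549 distal intergenic summits among their 5400 strongest (10.3 ± 0.542%, SD, n = 3).

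The sequence that meets the rule covered 27.8 Mb (20.8% of the arms) and held 21.2 members per Mb. The rest of the arms held 45.4 summits per Mb, or 32.2 with promoter summits and promoter sequence left out. Introns at the same distance held 32.9 per Mb, and intergenic sequence within 2000 bp of a TSS 63.4. Member density was 37.4 per Mb at 2000 to 5000 bp from a TSS (261 members), 20.3 at 5000 to 10000 bp (130), 24.7 at 10000 to 20000 bp (145), 13.0 at 20000 to 50000 bp (53), and 0.444 beyond (2 members). The repeat-masked share of the sequence moved with distance, at 17.7%, 18.2%, 20.4%, 27.4% and 45.8%, and its part in the density was not tested.

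By arm, 3L had 27.1 members per Mb of eligible sequence (192 members) and 2L 25.5 (133), while 2R had 18.6 (102), 3R 17.1 (103) and X 14.4 (57). In sequence that is not repeat-masked, 3L had 28.7 per Mb and X 15.5. On chromosome 4, only 0.0782 Mb met the rule, and its 4 members give 51.2 per Mb. Over all IDR peaks X was not low: whole arms held 41.1 per Mb on X and 41.9 on 3L. Arms also differ in how much of each lies far from genes, and no test compares them.

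**Figure D4:**
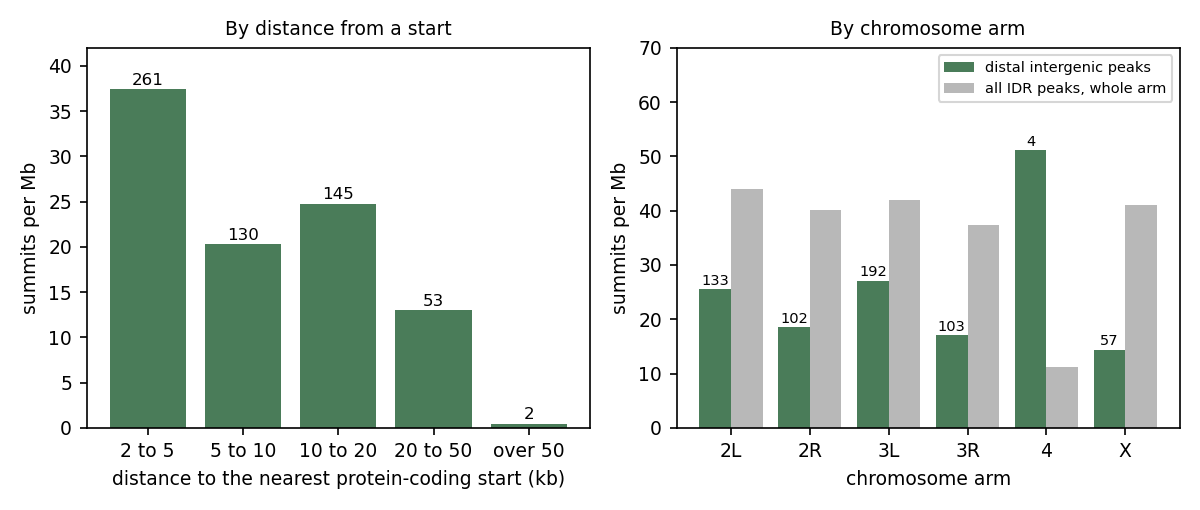
Members per Mb of eligible sequence by distance from the nearest protein-coding start (left) and by chromosome arm (right, green, beside all IDR peaks per Mb of whole arm in grey), with the number of members above each bar. Density is 37.4 per Mb closest to a start and 0.444 per Mb beyond 50 kb, and X is lowest among the arms at 14.4.

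Member summits were close to their surroundings in base composition. Median GC content of the summit windows was 40.8% at member summits, 40.8% in flanks centred 500 bp to each side, and 41.3% in all eligible sequence cut into 135823 windows. It was 37.8% at near-start, 39.8% at distal intronic and 43.3% at promoter summits. Windows over 50% repeat-masked were 2.54% of members, 4.06% of flanks and 12.9% of eligible windows. Only 2 members (0.338%) had a repeated 50-mer at the summit.

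GTTCGA was the sequence most concentrated at member summits. All 2080 6-mers, a 6-mer and its reverse complement counted as one, were ranked by summit share minus flank share on the 296 odd-numbered members in order of signal, and values were then read on the 295 even-numbered members. GTTCGA, seen in the windows above, occurred in 15.6% of even members (Wilson interval 11.9 to 20.2%), 4.24% of their flanks and 6.42% of eligible windows. GCAACA occurred in 25.1% of even members and 16.9% of flanks, CAACAA in 25.8% and 21.7%, AACATG in 15.3% and 9.15%, and ACAAGT in 13.9% and 9.49%. For CAACAA the Wilson interval of the even members, 21.1 to 31.0%, held the flank share. Of the 15 leading 6-mers, 14 were again higher at the summit in even members, where 48.5% of all 2080 6-mers were. At least 1 of the 5 leading 6-mers was present in 55.3% of even members, 44.7% of flanks and 44.1% of eligible windows. The same held for 52.6% of near-start, 56.0% of distal intronic and 56.0% of promoter windows, so the set was not particular to members.

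GTTCGA was not particular to distal intergenic summits, since it occurred in 12.4% of near-start, 13.7% of distal intronic and 19.5% of promoter windows. Among distal intergenic entries of the pooled list outside the IDR list, which may include background, GTTCGA was in 7.90%. By strength, 26.4% of the 53 even members in the strongest 25% of the list held it, against 13.2% of the other 242, with intervals of 16.4 to 39.6% and 9.52 to 18.1% that overlap slightly. Over all members it was found in 7.11% within the central 50 bp, in 5.92% and 4.06% in the 50 bp bins to the left and right, and in 0.846 to 2.71% in each bin centred 150 to 950 bp away.

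Of 28 motifs searched on both strands in the same windows, 5 were more frequent at member summits than in flanks by more than the Wilson interval of the member share, 5 less, and 18 fell within it. Higher were GAGAGAG, bound by GAGA factor, in 6.43% of members (4.72 to 8.70%), 3.13% of flanks and 2.15% of eligible windows; the repeat CACACAC, in 11.8%, 9.22% and 6.49%, which turned to -0.677 points against flanks with 50 bp to each side; AGNTGGCG, a core of the CTCF insulator motif, in 3.38%, 1.86% and 2.03%; AACCACA of Runt, in 3.05%, 1.86% and 2.95%; and AACNGGTTT of Grainyhead, in 2.20%, 1.18% and 0.591%. For Runt the share of members was close to that of all eligible windows, and it turned to -0.677 points against flanks with 250 bp to each side and to -0.0846 points with flanks 1000 bp away. GAGAGAG was higher than in flanks by 3.30 points, and by 2.12 with 50 bp to each side. The CTCF core was higher by 1.52 points with all replicates and by 2.12 to 2.64 points without 1 replicate, of which the highest was without replicate 1. Grainyhead was higher by 1.02 points with all replicates, by 0.628 without replicate 1, by 1.53 without replicate 3, and by 0.169 with 50 bp to each side. With 50 bp to each side 6 motifs, in place of 10, fell outside the interval. Over all IDR peaks, members included, the shares were 6.74% for GAGAGAG, 10.9% for CACACAC and 2.72% for AGNTGGCG. They were 2.96% for AACCACA and 1.98% for AACNGGTTT. Each lay within the Wilson interval of the member share. Near-start, distal intronic and promoter shares of AGNTGGCG, AACCACA and AACNGGTTT also lay within it, so these were not particular to members. GAGAGAG was in 6.22%, 4.69% and 7.82% of windows of these classes, of which the distal intronic share lay just below the interval. CACACAC was in 7.42%, 10.6% and 10.7%, of which the near-start share lay below it (9.48 to 14.7%).

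Lower were GGGNNNNCC of Dorsal, in 7.45% of members, 13.5% of flanks and 12.2% of eligible windows; TTCNNNGAA of STAT, in 2.88%, 6.51% and 5.89%; TAATTA of homeodomain proteins, in 11.8%, 15.3% and 14.4%; TAATCC of Bicoid, in 3.38%, 6.26% and 6.46%; and a run of 8 A, in 10.2%, 13.6% and 10.8%. The summit share minus the flank share of TAATTA was -3.47 points with all replicates, -1.64 without replicate 3 and -2.12 with 50 bp to each side. For the A run it was also -3.47 points, but -0.0846 with 50 bp to each side. For the Dorsal, STAT and Bicoid motifs it was -6.01, -3.64 and -2.88 points, and -3.98, -1.52 and -1.35 with 50 bp to each side. Over all IDR peaks the shares were 9.28% for Dorsal, 4.91% for STAT and 11.9% for TAATTA. They were 4.91% for Bicoid and 11.6% for the A run. Of these 5 motifs, only STAT had an all-IDR share outside the Wilson interval of the member share (1.80 to 4.56%). GAGAGAG was found in 12 of the 107 members in the strongest 25% (11.2%) and 26 of the other 484 (5.37%), and AGNTGGCG in 7 (6.542%) and 13 (2.69%), with intervals that overlap for both.

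The 18 motifs within the interval were CAGGTAG (Zelda, 1.02% of members and 0.817% of eligible windows), the E-boxes CAGCTG (5.92%, 7.08%), CACATG (9.98%, 8.97%) and CAGGTG (5.75%, 6.08%), GCCAT (Pho, 33.8%, 36.1%), TATCGATA (DREF, 0.169%, 0.375%) and CGATA (BEAF-32 core, 19.6%, 19.4%). The others, with the same pair of shares, were TTTATG (Caudal, 21.3%, 23.2%), AGATAA (for GATA factors, 13.2%, 10.9%), CCGGAA (ETS, 4.23%, 5.40%), GTGGGAA (Su(H), 3.05%, 2.71%), CCTTTGA (TCF, 1.86%, 2.95%), TGANTCA (AP-1, 2.88%, 3.50%), TGACGTCA (CRE, 0.338%, 0.269%), CAAGGTCA (FTZ-F1, 0 of 591 members, which allows up to 0.508%, and 0.359%), GCCGNCGC (Mad/Medea, 0.846%, 1.68%), GCTGCTGC (a triplet repeat, 3.72%, 2.62%) and TATAAA (as in TATA boxes, 23.4%, 22.6%). Bases can be shared between the motifs of BEAF-32 and DREF, CTCF and Pho, Bicoid and Dorsal, ETS and STAT, and Dorsal and Pho. A match is a description of the letters in these windows, and no match says nothing of the factor.

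**Figure D5:**
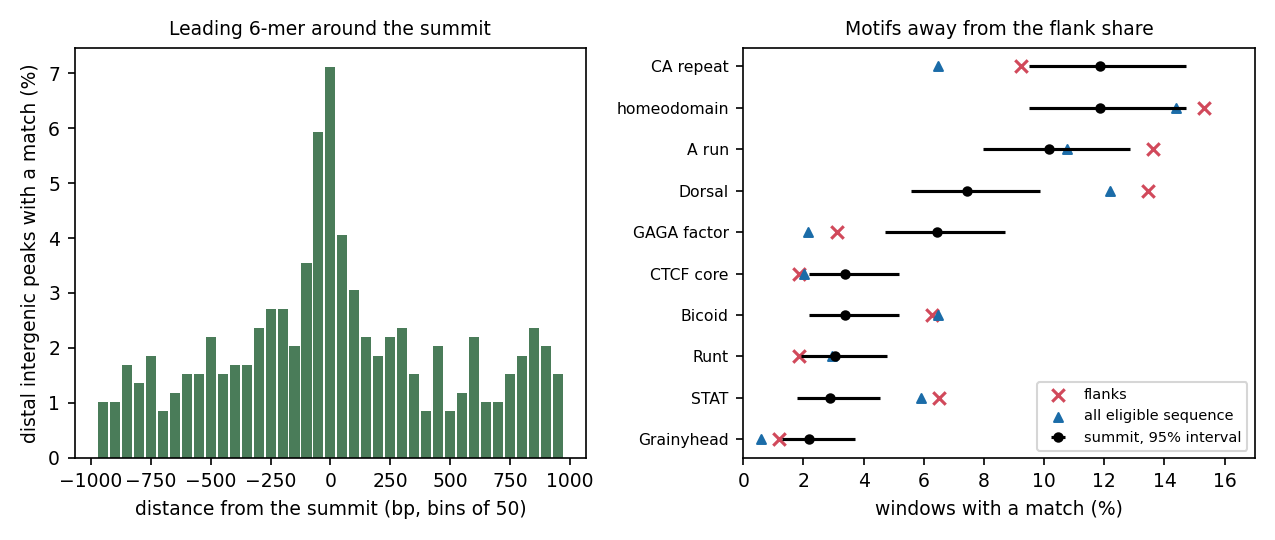
Left, share of members with GTTCGA in 50 bp bins around the summit; it peaks at 7.11% in the central bin. Right, share of member windows (black, Wilson 95% interval), flanks (red crosses) and all eligible windows (blue triangles) with each of the 10 motifs whose flank share fell outside the member interval.

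At the edge of the rule, the members closest to a TSS were those near Mes2 (2010 bp, signal 353), ptc (2011 bp, 212), Egfrap (2012 bp, 336), Cyp6v1 (2018 bp, 337) and l(2)k09913 (2037 bp, 232). Just outside lay intergenic peaks near CG4218 (1997 bp, 574), CG13786 (1995 bp, 818), CG13204 (1982 bp, 488), Lip2 (1968 bp, 1404) and CG33467 (1966 bp, 325). The rule reads summits, and 50 members had an interval that touched a gene body. Peak widths had a median of 464 bp, 25 members (4.23%) were wider than 1000 bp, 116 (19.6%) overlapped another IDR peak, and 379 (64.1%) had another IDR summit within 5000 bp.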

How the data were processed

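Members and lists were chosen with earlier results of these data known. The authors deposited peak lists for 3 replicates, for the pooled replicates and for IDR, per the labels and the deposited notes, on dm6 and dm3, and the dm6 lists were analysed. The pooled list is labelled as peaks and background used as input for IDR. The aligner, the program that called peaks, the IDR cut-off and the control were not given in the sources used here. Each peak's signal value is a score from the authors' caller with no fixed range, the deposited −log10 q-value accompanies it, and the summit offset per peak is the authors' own. Signal served only to order peaks inside one list. The IDR peaks were the 5400 strongest of the pooled list.

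Summits (1-based) were placed on the gene models of Ensembl release 115 and genome release 6, with Python 3.11.15, numpy 2.4.6, pandas 2.3.3, scipy 1.17.1, statsmodels 0.14.6 and matplotlib 3.10.9. Other intergenic, intronic and promoter classes, windows of 100 bp to each side of the summit, flanks centred 500 bp away and all eligible sequence cut into windows served as comparison. Shares carry Wilson 95% intervals, and a count of 0 the limit of 3 counts. Both cover counting error only, since read depth is unknown. Peaks of different classes were compared with Fisher's exact test, two-sided, with Benjamini-Hochberg adjustment over 7 tests and a threshold of 0.05. With 1 group no test compares samples, and the spread between replicates is an SD over 3. Odds ratios have 0.5 added where a count is 0. The code was tested on simulated data.

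Named genes are those beside the 25 strongest members and the 10 gaps with most members (ties by the strongest signal), and up to 4 genes per gene list with the strongest member. Genes named for the edge of the rule, and disco-r, were chosen after their values were seen. Alternatives changed the distance, the start set, the window, the flank, the gap definition, overlapping peaks, the stronger and weaker 50% of the list and the replicates used. Those for 6-mers, genes beside members and replicates left out for gaps were added after the data were seen.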

Additional observations from a re-analysis of the deposited data

How the results depend on the processing

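No paired analysis was possible because the series holds 1 group. The share of distal intergenic peaks moved with the rule: it was 13.4%, 8.85% and 6.11% at minimum distances of 1000, 3000 and 5000 bp, 10.0185% with whole intervals outside gene bodies, 8.07% with starts of any biotype, 9.15% in the stronger 50% of the list, and 9.88 to 10.4% without 1 replicate. Density was 23.3, 19.04 and 15.8 per Mb at those distances and 14.3 to 15.3 without 1 replicate, where fewer peaks remain by construction. The share of members in gaps with 2 or more was 65.99% for gaps between protein-coding genes, 49.5% with the strongest of overlapping peaks, and 53.0151 to 54.0% without 1 replicate.

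For recovery by all 3 replicates, the log2 odds ratios in the stronger 50% were -0.69 against near-start, 0.089 against distal intronic and 0.54 against promoter peaks, and in the weaker 50% -0.36 against near-start and -0.22 against promoter peaks. With double the replicate peaks they were 0.015 against near-start and 0.46 against promoter peaks. None of these passed, and the cause was not tested. For the strongest 25%, distal against distal intronic was -0.041 with whole intervals, -0.12 with any start, -0.019 with the strongest of overlapping peaks, -0.063 for the strongest 50% of the list and -0.054 to -0.010 without 1 replicate, none past the threshold. It was 0.83 within the stronger 50% and 0.94 for the strongest 10%, both past it. Against near-start peaks it was -0.20 within the stronger 50% and -0.53 for the strongest 10%, neither past it.

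Median GC was 42.5% with 250 bp to each side. The number of motifs away from the flank share was 6 of 28 with 50 bp to each side. CACACAC turned to -0.677 points with 50 bp, and AACCACA to -0.677 points with 250 bp and -0.0846 points with flanks 1000 bp away. The GTTCGA difference was 7.97 points with 50 bp, 13.1 with 250 bp, 10 with flanks 1000 bp away, and 8.77 to 11.96 without 1 replicate. The share of nearest genes with a peak at a start was 23.3 to 23.5% without 1 replicate. Unknown read depth limits every count of weak members, and replicate signal values cannot be compared in size.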

Other observations

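Members are defined by protein-coding starts, and 155 of 591 (26.2%) lay within 2000 bp of the start of a noncoding gene or transposable element. Long noncoding and other unclassified noncoding RNAs accounted for 110 of them, 20 within 250 bp. Their median signal was 305, against 273 for the 436 members with no start of any kind within 2000 bp. Transposable elements accounted for 31, with a median of 272, of which the Dm88 copy beside CG10651 was the strongest and an INE-1 copy on chromosome 4 had a member with a signal of 1139.

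Transfer RNA genes accounted for 10 members, with a median signal of 224, and 5 of them lay within 250 bp of the tRNA start. The strongest, with a signal of 571, lay 72 bp from a leucine tRNA gene. GTTCGA, which also lies in the T-loop of many tRNA genes, was in the window of 1 of these 5 members and of 106 of the other 586 (18.1%). Small nucleolar RNA genes accounted for 3 members, and 1 lay 3 bp from the start of a U1 small nuclear RNA gene. The counts are small and were not tested.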
